A study of Glycine max with 26 samples.

Results

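The 67 probe sets described here are transcripts of developing soybean seeds whose signal was highest in the subjective day. They are 67 of the 11481 probe sets whose mean log2 signal over all arrays was above 4, out of 16383 in the table. Each was chosen from the measured values: a 24 h cosine and sine with a linear time term was fitted over all 26 arrays, and a probe set was kept where the ordinary p of the daily terms was under 0.003 and the fitted peak lay 4 to 10 h after subjective dawn. These 2 criteria held for 71 probe sets, 0.618% of those tested, and 4 of them were left out by symbol (CHI1A, both probe sets of CHS8, and one with the symbols BZIP76 and SOYSTGA). Fitted peaks, amplitudes and differences between day and night are therefore given as a description of the members and carry no test.

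Seeds of the cultivar Williams 82 (seed coat included) were harvested 5 weeks after flowering from plants raised in cycles of 12 h light and 12 h dark at 25 °C and 75% relative humidity. At a subjective dawn the light (350 µmol per square metre per second) was left on, and seeds were taken every 4 h from 24 to 72 h of constant light. All 13 times thus share one genotype, one age and constant light, and no array holds seeds from darkness or from a light-dark cycle. Each time has 2 arrays, and each array holds RNA of 8 seeds pooled from 3 plants. Separate plants for the 2 pools are not named by the labels. The spread between replicates, which enters every p-value as part of the residual spread of the fit, may in part be technical. In what follows 24, 48 and 72 h are subjective dawn, 36 and 60 h subjective dusk, and each cycle is counted in hours after dawn.

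The plant circadian clock is a set of transcription factors that repress and activate one another in turn through the day. In leaves of Arabidopsis it continues in constant light and places different groups of genes at different hours, with light harvesting and the phenylpropanoid pathway among those that precede or follow dawn. Seeds attached to the mother plant fill with storage protein and oil during this period.

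The arrays carried the transcripts of maturing seeds. Storage protein symbols (9 probe sets) averaged between 13.58 and 14.01 log2 on the 26 arrays, and the broader seed list (40 probe sets of storage proteins, oleosins, trypsin inhibitors and maturation proteins) between 12.11 and 12.83. The 2 seed coat probe sets averaged 13.31 to 14.42 and the 8 photosynthetic ones 10.12 to 10.84. Array medians lay between 6.08 and 6.47, and the 2 arrays of a time correlated at 0.977 to 0.994. In 13 arrays, 1 at each time, the lowest signal was between 1.54 and 2.04 log2, and in the other 13 between 2.40 and 3.02. They are called low floor and high floor arrays below, a division seen in the values and named by no label. The low floor array is replicate 2 at 64 and 72 h and replicate 1 at every other time. Array floor and replicate number therefore nearly coincide.

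Averaged over the 67 probe sets, the signal stood above each probe set's own mean from 28 to 36 h, below it from 40 to 48 h, above it again at 52 and 56 h and below it from 64 to 72 h. At 60 h the 2 replicates lay on both sides of it, at -0.02 and 0.09. Over the arrays taken 4 h after dawn the mean deviation was 0.17 ± 0.07 log2 (SD, n = 4), and 8 h after dawn it was 0.16 ± 0.03 (n = 4). At 12 h it was 0.10 ± 0.08 (n = 4), at 16 h -0.20 ± 0.06 (n = 4) and at 20 h -0.17 ± 0.05 (n = 4). At dawn itself the mean was close to 0, at -0.04 ± 0.03 (n = 6). The 2 replicates at 28 h gave 0.23 and 0.16, those at 52 h gave 0.07 and 0.20, those at 40 h -0.12 and -0.25, and those at 64 h -0.19 and -0.24. No array taken 4 or 8 h after dawn had a negative mean deviation, and no array taken 16 or 20 h after dawn a positive one. The same average over all 11481 probe sets stayed between -0.05 and 0.02 when averaged by hour after dawn, while single arrays ranged from -0.17 to 0.13. In tissue pools such as these, a lower signal from fewer cells of one type and a lower signal per cell cannot be told apart.

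**Figure D1:**
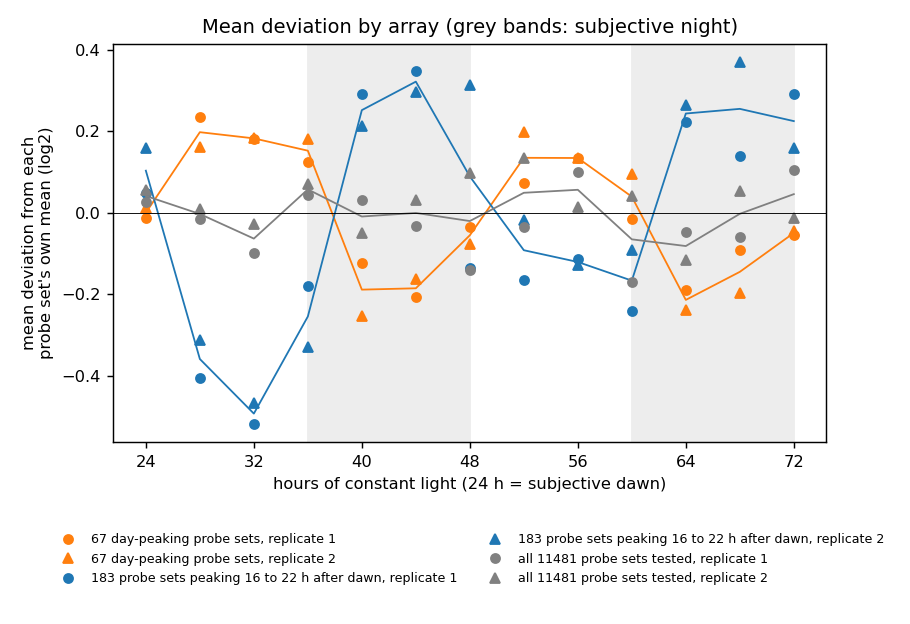
Mean deviation of each array from each probe set's own mean (log2, y axis) against hours of constant light (x axis). The sets are the 67 day-peaking probe sets, 183 with the same p threshold but a fitted peak 16 to 22 h after dawn, and all 11481 tested. No symbol was left out of the 183. Circles and triangles are the 2 replicates, lines join their means and grey bands mark the subjective night; the day-peaking points lie between 0.07 and 0.23 at 28, 32, 52 and 56 h, and single arrays of all probe sets tested lie between -0.17 and 0.13.

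Marker lists of the seed were read at the same hours. The 8 photosynthetic probe sets averaged 10.33 log2 over the day arrays of 4 and 8 h (10.12 to 10.58 by array) and 10.73 over the night arrays of 16 and 20 h (10.60 to 10.84), the opposite direction to the members and without overlap. Of these 8, 5 met the p threshold of the rule, which 2.27% of all probe sets tested met at any peak. None of the 5 peaked in the day window. The 2 seed coat probe sets averaged 13.73 by day (13.31 to 14.08) and 14.01 by night (13.74 to 14.42). Storage proteins averaged 13.71 (13.58 to 13.90) and 13.84 (13.73 to 13.99), and 29 maturation protein probe sets 11.83 (11.26 to 12.26) and 11.68 (11.32 to 12.26), each with overlap. The part of these lists in the course of the members was not tested.

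The daily swing was small. The fitted amplitude, which is the distance from the mean of the curve to its peak, had a median of 0.18 log2 over the members and ranged from 0.08 to 0.37. From trough to peak this is a median of 1.29-fold (1.11 to 1.68), and 7 members were above 1.5-fold. The median of the members' mean signals was 8.80 log2 and that of all probe sets tested 7.57, with 15 members above 10 and 2 below 5; signal also depends on the probes. Their spread was narrow as well: the SD between replicates had a median of 0.138 log2, against 0.210 over all probe sets tested. The 183 night-peaking probe sets, from which no symbol was left out, had a median amplitude of 0.29 at a median signal of 8.98. The rule's own p shapes both medians, since a small swing passes it only where the replicates lie close together.

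Most of the peaks fell near the middle of the subjective day. The median fitted peak was 6.71 h after dawn with quartiles of 6.15 and 7.24 h, and 48 of the 67 lay between 6 and 8 h. Another 14 peaked between 4 and 6 h and 5 between 8 and 10 h. Among single arrays the highest value of a member fell 4 h after dawn for 41 members, 8 h for 20 and 12 h for 6. The lowest value fell 16 h after dawn for 40, 20 h for 21 and at dawn for 6. A few arrays held many of these extremes: the first replicate of 28 h was the highest array for 18 members, the second replicate of 52 h for 14, and the second replicate of 40 h the lowest for 18. For 16 members all 8 arrays taken 4 and 8 h after dawn lay above all 8 taken 16 and 20 h after dawn, which was so for 0.218% of all probe sets tested. After moderation of the variances by limma, 16 members had a daily term with an adjusted p under 0.05; 0.157% of the table passed that with a peak in the window and 1.2% with any peak. These counts come from the contrast that chose the members.

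**Figure D2:**
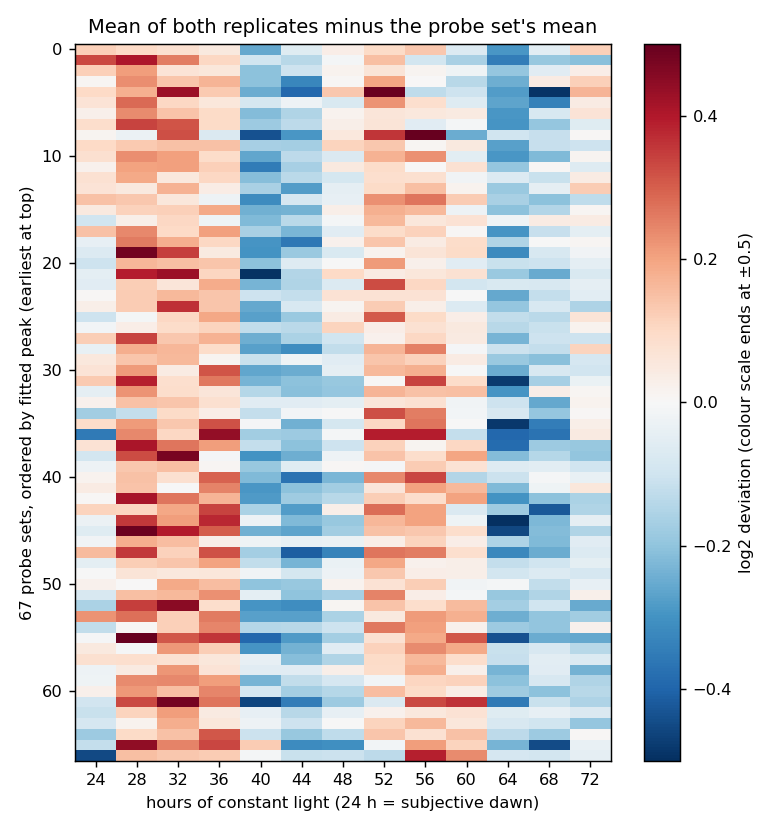
Each row is one of the 67 probe sets, ordered by fitted peak with the earliest at the top, and each column one of the 13 times in hours of constant light. Colour gives the mean of both replicates minus the probe set's mean (log2, scale ending at ±0.5); most rows are warm at 28 to 36 h and 52 to 56 h and cold at 40 to 44 h and 64 to 68 h.

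Exactly 1 gene symbol was attached to 25 of the members, which stand for 24 genes on 13 chromosomes. No 2 of them lay within 10 genes of each other. Only CYP93E1 and RIN4c carry a descriptive symbol, and the other 23 probe sets carry locus numbers, to which no function is given here. Of the rest, 3 list several symbols and 39 list none. A symbol was thus available for 37.3% of the members against 33.8% of all probe sets tested.

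CYP93E1 encodes a cytochrome P450, beta-amyrin 24-hydroxylase, which acts in the synthesis of the soyasaponins, triterpene glycosides that accumulate in soybean seeds. Its mean signal of 14.52 log2 lay near the upper end of the arrays, whose values reached 16.79. In the first cycle its 2 log2 signals were 14.41 and 14.41 at 24 h, 14.63 and 14.63 at 28 h, 14.81 and 14.65 at 32 h, 14.53 and 14.59 at 36 h, 14.54 and 14.42 at 40 h, and 14.41 and 14.35 at 44 h. In the second cycle they were 14.64 and 14.32 at 48 h, 14.53 and 14.55 at 52 h, 14.54 and 14.60 at 56 h, 14.68 and 14.50 at 60 h, 14.34 and 14.57 at 64 h, 14.53 and 14.42 at 68 h, and 14.44 and 14.45 at 72 h. The first cycle has its highest pair at 32 h and its lowest at 44 h, while in the second the replicates overlap across most times. Arrays of 4 and 8 h after dawn averaged 14.62 ± 0.09 log2 (SD, n = 8) and those of 16 and 20 h 14.45 ± 0.09 (n = 8), and the groups overlapped. The fitted amplitude was 0.12 ± 0.03 log2 (SE) with a peak at 8.22 h, a swing of 1.17-fold. Fitted alone, the first cycle gave 0.17 and the second 0.06. Here and below, single-cycle fits hold no linear time term, unlike the fit over all arrays.

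CYP93E1 is read by 2 more probe sets that were not members. Gma.5510.1.S1_s_at, at a mean of 14.50 log2, had an amplitude of 0.04 with a peak at 6.91 h, and Gma.5510.2.S1_s_at, at 12.49, had 0.05 with a peak at 5.61 h. Their ordinary p values for the daily terms were 0.402 and 0.546. Both peaks lie in the subjective day, but neither amplitude was separated from the residual spread of its fit. Over the 26 arrays they correlated with the member probe set at 0.678 and 0.515.

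**Figure D3:**
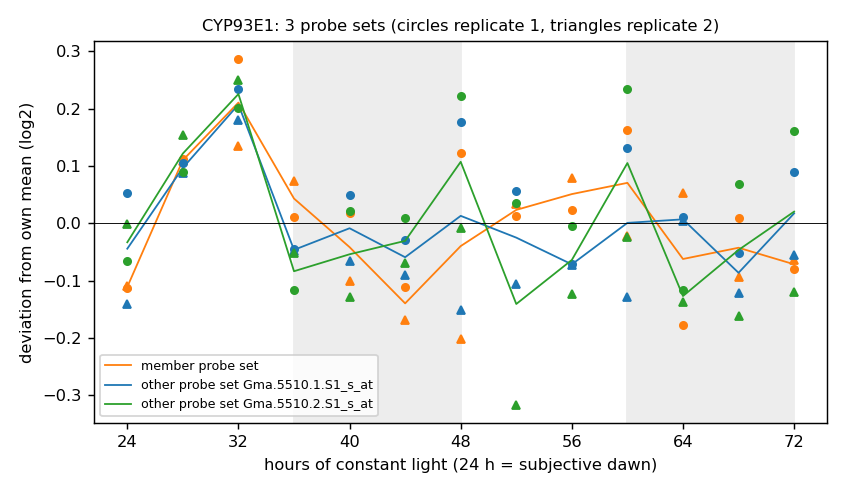
Deviation from its own mean (log2, y axis) of each of the 3 CYP93E1 probe sets against hours of constant light (x axis), with circles and triangles for the replicates, lines for their means and grey bands for the subjective night. The member probe set swings by an amplitude of 0.12 and the other 2 by 0.04 and 0.05.

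RIN4c is a soybean relative of Arabidopsis RIN4, a membrane-bound regulator of immune signalling that several bacterial effectors target. Its first-cycle log2 signals were 8.76 and 8.79 at 24 h, 9.03 and 8.84 at 28 h, 8.95 and 8.95 at 32 h, 8.81 and 8.81 at 36 h, 8.70 and 8.53 at 40 h, and 8.75 and 8.73 at 44 h. From 48 h on they were 8.88 and 8.73 at 48 h, 8.86 and 8.73 at 52 h, 8.89 and 8.96 at 56 h, 8.87 and 8.87 at 60 h, 8.73 and 8.74 at 64 h, 8.86 and 8.64 at 68 h, and 8.69 and 8.71 at 72 h. The 8 arrays of 4 and 8 h averaged 8.90 ± 0.09 (SD, n = 8) against 8.71 ± 0.10 (n = 8) at 16 and 20 h, with some overlap. Its amplitude was 0.11 ± 0.03 log2 (SE), its peak 7.03 h and its swing 1.17-fold, and the single-cycle amplitudes were 0.16 and 0.08.

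One of the 3 members with several symbols lists GSK-3, a kinase related to glycogen synthase kinase 3, a family that in Arabidopsis acts in brassinosteroid signalling. It also lists LOC100798867, so its signal cannot be given to either gene. This probe set, Gma.11129.1.S1_at, averaged 10.42 ± 0.13 log2 (SD, n = 8) at 4 and 8 h and 10.16 ± 0.11 (n = 8) at 16 and 20 h, without overlap. Its amplitude was 0.16 ± 0.04 (SE) with a peak at 7.20 h. The 4 other probe sets of its cluster had amplitudes of 0.05 to 0.08, with 3 of the 4 peaks in the day window and 1 at 2.66 h.

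Among members with 1 symbol, LOC100797017 had the largest amplitude. Its probe set, Gma.6312.1.S1_s_at, is marked by the array design as able to bind several transcripts. Its log2 signals from 24 to 44 h were 7.70 and 8.02 at 24 h, 7.84 and 8.03 at 28 h, 8.16 and 8.21 at 32 h, 7.87 and 7.90 at 36 h, 7.58 and 7.44 at 40 h, and 7.24 and 7.50 at 44 h. Those from 48 to 72 h were 7.94 and 7.85 at 48 h, 8.09 and 8.41 at 52 h, 7.81 and 7.45 at 56 h, 7.69 and 7.62 at 60 h, 7.52 and 7.44 at 64 h, 7.32 and 7.22 at 68 h, and 7.95 and 7.91 at 72 h. The highest pairs stand at 32 and 52 h, the lowest at 44 and 68 h, and dawn at 48 and 72 h is nearly as high as the day. Its amplitude was 0.33 ± 0.06 log2 (SE), a 1.58-fold swing, and its peak, 5.35 h after dawn, is early for the group. Day arrays averaged 8.00 ± 0.30 (SD, n = 8) and night arrays 7.41 ± 0.13 (n = 8). The amplitude was nearly equal in the 2 cycles, at 0.37 and 0.36.

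LOC100809511 separated day from night arrays. Its signals in the first cycle were 9.77 and 9.77 at 24 h, 10.58 and 10.06 at 28 h, 10.18 and 10.27 at 32 h, 10.09 and 10.18 at 36 h, 9.59 and 9.59 at 40 h, and 9.53 and 9.61 at 44 h. In the second cycle and at 72 h they were 9.74 and 9.58 at 48 h, 10.07 and 9.88 at 52 h, 10.09 and 9.84 at 56 h, 9.82 and 10.02 at 60 h, 9.36 and 9.40 at 64 h, 9.79 and 9.44 at 68 h, and 9.70 and 9.66 at 72 h. Every array taken 4 or 8 h after dawn was above every array taken 16 or 20 h after dawn, although the first replicate of 68 h came close to the lowest day arrays. The amplitude was 0.31 ± 0.05 log2 (SE) with a peak at 7.10 h and a 1.55-fold swing. Day and night arrays averaged 10.12 ± 0.23 (SD, n = 8) and 9.54 ± 0.14 (n = 8).

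LOC100820151 was one of the 2 members with a mean signal under 5 log2. Its values from 24 to 44 h were 4.61 and 4.98 at 24 h, 5.49 and 5.22 at 28 h, 4.94 and 5.39 at 32 h, 5.35 and 5.14 at 36 h, 5.26 and 4.82 at 40 h, and 4.46 and 4.73 at 44 h. From 48 to 72 h they were 4.42 and 4.79 at 48 h, 4.99 and 4.81 at 52 h, 5.04 and 5.20 at 56 h, 4.88 and 5.17 at 60 h, 4.79 and 4.58 at 64 h, 4.24 and 4.69 at 68 h, and 5.18 and 4.57 at 72 h. Replicates differ here by slightly more than the fitted swing from trough to peak at 72 h, and by less than it at 40 h. The amplitude was 0.28 ± 0.07 log2 (SE) with a late peak of 8.66 h, and day arrays (5.13 ± 0.23, SD, n = 8) overlapped night arrays (4.70 ± 0.30, n = 8). A second probe set of this gene, Gma.18033.1.S1_at, had a mean of 8.28, a smaller amplitude of 0.13 and a peak at 7.17 h, with an ordinary p of 0.0618.

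LOC100803381 had a larger fitted amplitude in the first cycle, a difference that did not pass the test between cycles. Its signals there were 7.08 and 7.34 at 24 h, 7.51 and 7.79 at 28 h, 7.72 and 7.65 at 32 h, 7.17 and 7.56 at 36 h, 6.77 and 6.75 at 40 h, and 7.15 and 7.06 at 44 h. In the second they were 7.23 and 7.49 at 48 h, 7.19 and 7.40 at 52 h, 7.08 and 7.55 at 56 h, 7.35 and 7.32 at 60 h, 7.25 and 6.89 at 64 h, 7.32 and 6.69 at 68 h, and 7.12 and 7.25 at 72 h. The pairs at 28 and 32 h are the highest and the pair at 40 h the lowest, while from 48 h on only the second replicates of 64 and 68 h fall below 7. The amplitude was 0.42 in the first cycle and 0.15 in the second, and 0.27 ± 0.07 (SE) over both, with a peak at 6.20 h. The probe set of this gene, Gma.4360.1.S1_s_at, is also marked as able to bind several transcripts.

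LOC100306492 passed the rule whichever array was left out. Its first-cycle signals were 10.89 and 10.86 at 24 h, 11.37 and 11.19 at 28 h, 11.23 and 11.04 at 32 h, 11.05 and 11.03 at 36 h, 10.73 and 10.44 at 40 h, and 10.85 and 10.53 at 44 h. Its later signals were 10.87 and 10.59 at 48 h, 11.09 and 10.89 at 52 h, 10.77 and 11.14 at 56 h, 11.08 and 11.07 at 60 h, 10.68 and 10.45 at 64 h, 10.70 and 10.63 at 68 h, and 10.69 and 10.73 at 72 h. The pair at 28 h is the highest and the pairs at 40 and 64 h are among the lowest, and the second peak is lower than the first. The amplitude was 0.25 ± 0.05 log2 (SE) with a peak at 7.05 h, and day arrays averaged 11.09 ± 0.19 (SD, n = 8) against 10.63 ± 0.14 (n = 8) at night.

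LOC100805812 lay just inside the p threshold. Its signals were 7.30 and 7.51 at 24 h, 7.58 and 7.49 at 28 h, 7.50 and 7.44 at 32 h, 7.57 and 7.80 at 36 h, 7.32 and 7.02 at 40 h, and 6.95 and 7.09 at 44 h. After 44 h they were 7.24 and 7.08 at 48 h, 7.45 and 7.81 at 52 h, 7.70 and 7.75 at 56 h, 7.07 and 7.42 at 60 h, 7.48 and 7.09 at 64 h, 7.55 and 7.21 at 68 h, and 7.36 and 7.34 at 72 h. Each of the 8 day arrays was above 7.4, and single night arrays at 64 and 68 h reached that range too. The amplitude was 0.23 ± 0.06 log2 (SE) with a peak at 7.04 h. This member passed the rule in only 6 of the 26 fits that each leave out 1 array.

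**Figure D4:**
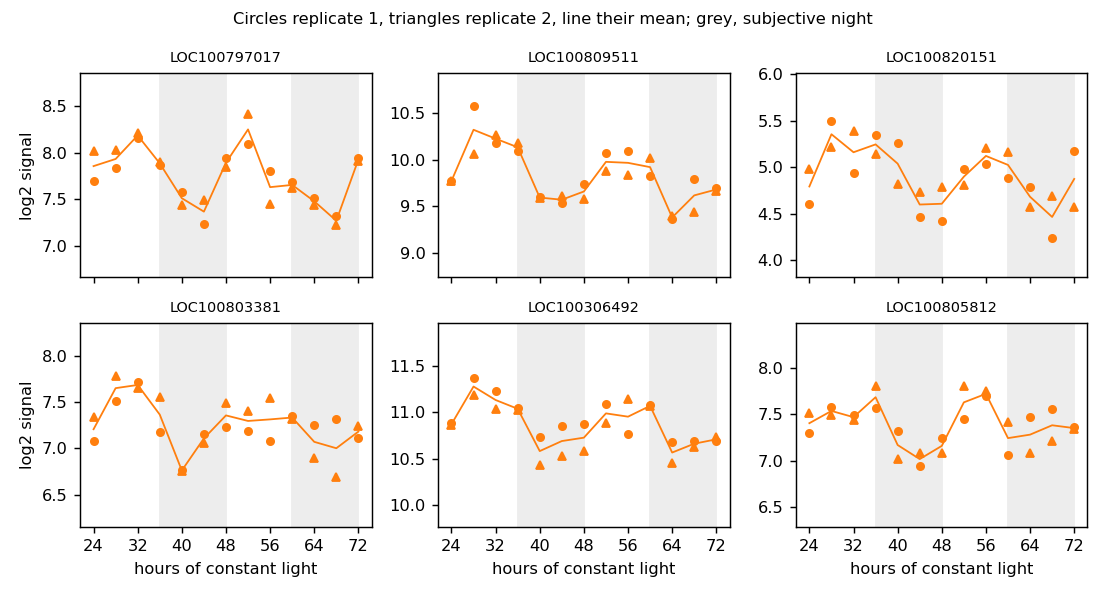
Log2 signal (y axis, each panel 2.2 log2 units high) against hours of constant light (x axis) for the 6 members with 1 symbol and the largest fitted amplitude, with circles and triangles for the 2 replicates, lines for their means and grey bands for the subjective night. LOC100809511 separates day from night arrays without overlap. LOC100820151 has the largest SD between replicates relative to its amplitude (0.25 against 0.28 log2), and LOC100803381 at 68 h the widest single gap relative to its swing.

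The 17 remaining probe sets with 1 symbol had amplitudes between 0.08 and 0.23 log2. LOC100778321, LOC100500552, LOC100817699, LOC100790689, LOC100800306 and LOC100820331 had amplitudes from 0.20 to 0.23. Among these, LOC100500552, which is annotated as a long non-coding RNA, and LOC100800306 showed no overlap between the 8 day and the 8 night arrays. LOC100787324 (2 probe sets), LOC100527074, LOC100796232, LOC100786656, LOC100305647 and LOC100789661 had amplitudes from 0.15 to 0.19, and LOC100796731, LOC100787107 and LOC100819376 from 0.11 to 0.14. The smallest amplitude, 0.08, belonged to LOC100813012, a transcript at a mean of 9.99 log2 with a peak at 7.22 h. It nevertheless passed the rule whichever array was left out. Apart from LOC100500552, the genes behind the 25 probe sets are annotated as protein-coding.

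The 4 members without a symbol that had the largest amplitudes exceeded all named members. Gma.4137.1.S1_at had an amplitude of 0.37 ± 0.09 log2 (SE), or 1.68-fold from trough to peak, around a low mean of 5.16. Its peak was at 7.77 h. Gma.6682.1.A1_at, at a mean of 10.06, had an amplitude of 0.35 ± 0.06 and peaked at 7.45 h. Its day arrays averaged 10.34 ± 0.19 (SD, n = 8) and its night arrays 9.72 ± 0.22 (n = 8), without overlap. Gma.4589.1.S1_s_at had an amplitude of 0.34 ± 0.07 at a mean of 9.83 and peaked at 5.69 h. Gma.565.1.S1_at had 0.34 ± 0.08 at a mean of 5.87 with a peak at 6.92 h, and it was among the members whose amplitude was larger in the second cycle, at 0.45 against 0.32 in the first.

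Members that share a probe cluster may read the same transcript, and some clusters hold probe sets of different genes. The 67 probe sets fall into 63 clusters, and 4 clusters hold 2 members each. Their correlations over the 26 arrays were 0.848 for LOC100809511 and its cluster partner Gma.11244.2.S1_s_at, 0.931 for the Gma.3881 pair, 0.902 for the Gma.4485 pair and 0.648 for the LOC100787324 pair, where the median over all pairs of members was 0.552. Probe sets marked by the array design as able to bind several transcripts made up 10.4% of the members and 12.7% of those tested. A further 35 probe sets share a cluster or a symbol with 19 of the members without having met the rule. Of these, 22 had a fitted peak 4 to 10 h after dawn (62.9%, against 40.2% of all probe sets tested), and 10 had it with an ordinary p under 0.05, which was so for 5.26% of those tested. All 4 that carry the same symbol as a member peaked in the window: both of CYP93E1, the one of LOC100820151, and one of LOC100819376 with an amplitude of 0.20 and a peak at 5.23 h. Such probe sets can bind the same RNA as the member they neighbour, but many did not follow it. C4H probe sets in the Gma.3881 cluster peaked at 21.0 and 22.6 h with ordinary p values of 0.565 and 0.340. Gma.8155.1.S1_at peaked at 12.4 h with an ordinary p of 0.727. Over the 26 arrays, correlations with the member were as low as 0.197 for Gma.4589.2.S1_at and lower for some others, and reached 0.907 for Gma.17976.2.S1_a_at.

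At the p threshold, the last members were Gma.11244.2.S1_s_at (0.00297) and LOC100805812 (0.00293), and the first probe sets outside it were Gma.5440.1.S1_at (0.00305) and LOC100794675 (0.00312). The lowest mean signals among members were 4.39 for Gma.14182.2.A1_at and 4.91 for LOC100820151. The earliest peaks were 4.33 and 4.47 h and the latest 8.66 and 9.39 h. Beyond the window the nearest peaks with p under 0.003 were at 3.50 h and at 10.6 h, so few transcripts lay at its edges.

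The linear term of time was part of the fit behind the rule, which set no threshold on it. It was tested over all 11481 probe sets with limma's moderated t and Benjamini-Hochberg adjustment. Without this term the rule gave 141 probe sets, 64 of the 67 members among them. The term was therefore not estimated independently of the daily terms that chose the sets. The shares of members and night-peaking probe sets given here describe these sets and do not test them. No member passed an adjusted p of 0.05, and no probe set of the table did (0.0%). Without adjustment, 7 members (10.4%) were under 0.05 with limma, where the background was 5.33%: 6 with a negative term, against 2.21% of the table, and 1 with a positive term, against 3.12%. The ordinary test gave 12 members without adjustment against 5.5%, and none after it. The smallest adjusted p with limma, 0.108, belonged to Gma.3154.1.S1_at, whose term was -0.50 ± 0.09 log2 (SE) over 48 h. Its adjusted p was 0.0337 without the second replicate of 52 h. The fitted term was negative for 49 of the 67 members (73.1%, against 51.7% of all tested), with a median of -0.05 against -0.01. Of the 183 night-peaking probe sets 11.5% had a negative term, and their median was 0.19.

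The shape of the daily curve was close to a single wave. A 12 h cosine and sine added to the fit had a median amplitude of 0.04 log2 over the members and 0.06 over all probe sets tested. By limma's moderated F no member had an adjusted p under 0.05 (0.0% of the table) and none an unadjusted p under 0.05, where the background was 1.71%. The ordinary F gave 2 members at the unadjusted threshold against 2.2%. A choice by a good fit to a single wave favours small 12 h terms.

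The members' median amplitude exceeded that of all probe sets tested in each cycle, and both cycles had entered the choice of members. The fit by cycle held a mean for each cycle and no linear time term, so a trend over time can enter its amplitudes and peaks. For Gma.3154.1.S1_at it gave 0.28 and 0.21 log2, against 0.16 with the linear term over all arrays. On the arrays of 24 to 44 h alone the members' median amplitude was 0.22 log2 (0.07 to 0.48), against 0.11 over all tested. On those of 48 to 68 h it was 0.18 (0.06 to 0.45), against 0.12. The peak stayed in the window of 4 to 10 h for 64 members in the first cycle and 65 in the second, at medians of 6.68 and 6.35 h. The peak of the second cycle came earlier for 40 members and later for 27, with a median shift of -0.38 h and 49 members within 2 h. By limma's moderated F of the interaction between cycle and the daily terms, no member differed between cycles at an adjusted p under 0.05 (0.0% of the table; smallest adjusted p 0.390). Unadjusted, 3 members were under 0.05, or 4.48% against a background of 10.3%, namely Gma.565.1.S1_at, LOC100820331 and Gma.14182.2.A1_at. The ordinary F gave 2 against 10.6%. The choice of members favours curves that repeat, and these counts are read with that in mind.

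The amplitude was larger in the first cycle for 42 members (62.7%), against 46.0% of all probe sets tested and 89.1% of the night-peaking ones. The second-cycle amplitude was a median of 0.860 of the first in the members and 0.528 of the first in the night-peaking probe sets. At an unadjusted p under 0.05 the cycles differed for 37.7% of the latter. These fits hold no linear time term, and the median of that term was -0.05 in the members and 0.19 in the night-peaking set. Whether the day-peaking and night-peaking sets differ in their amplitudes by cycle was not tested.

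**Figure D5:**
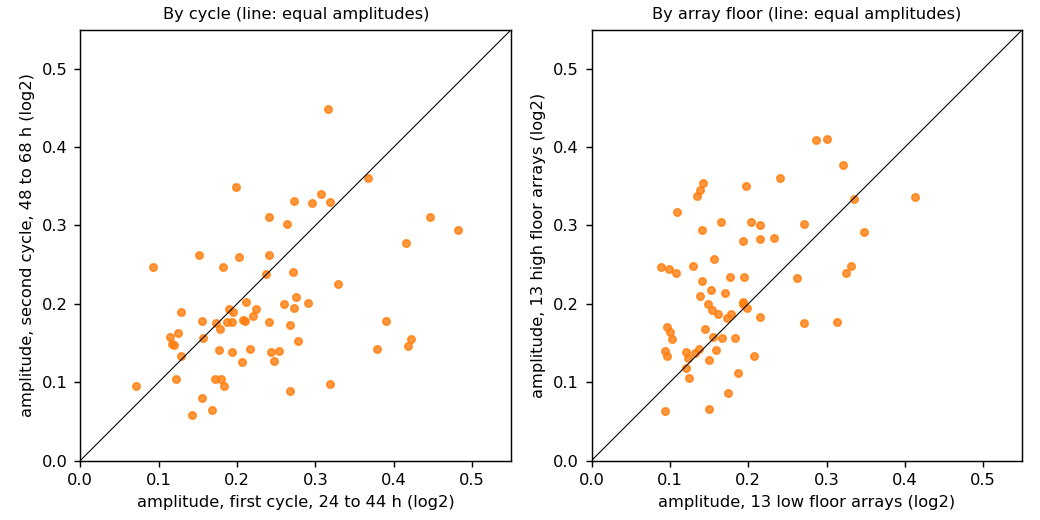
Fitted amplitude (log2) of each of the 67 members, as 1 point, in the second against the first cycle (left) and on the high floor against the low floor arrays (right), with a line where both are equal. Below the line on the left lie 42 points (62.7%, against 46.0% of all probe sets tested). Above the line on the right lie 46 (68.7%, against 62.7% of all probe sets tested).

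The members' median amplitude exceeded that of all probe sets tested on both kinds of array. Over all tested it was 0.09 log2 on the low floor and 0.12 on the high floor arrays. On the 13 low floor arrays the members had a median amplitude of 0.17 log2 (0.09 to 0.41) and on the 13 high floor arrays 0.21 (0.06 to 0.41). The peak stayed in the window for 65 members on the former and 66 on the latter. An ordinary p under 0.05 with a peak in the window was reached by 36 members on the low floor arrays, where 2.19% of all tested did so, and by 48 on the high floor arrays, where 4.49% did. Both kinds of array entered the choice of members, so these counts describe the members and do not test them. The level on high floor minus that on low floor arrays ranged from -0.13 to 0.16 log2 over the members, close to the size of the median amplitude at its ends. The median of this difference was 0.01, against 0.05 over all tested. It was above 0 for 34 of the 67 members (50.7%), against 67.7% of all probe sets tested.

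Single arrays decided many memberships. Leaving out each array in turn, 26 members passed the rule every time, CYP93E1, RIN4c, LOC100797017, LOC100809511 and LOC100306492 among them, and 43 passed in at least 20 of the 26 fits. The number of the 67 that still passed ranged from 41 without the first replicate of 44 h and 42 without the second replicate of 40 h to 62 without the second replicate of 36 h. The total count under the rule was 44 without either of the 2 former arrays.

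Replicates of one time also moved apart from each other. The rule used those differences only through the residual spread of its fit, where small ones were favoured. Over the 13 times, the difference between replicates correlated between members at a median of 0.144, against 0.142 over all probe sets tested and 0.334 within the night-peaking set. Between a member and a night-peaking probe set the median was -0.04. Against the mean of the maturation protein probe sets the members' median correlation was 0.10, where all probe sets gave -0.20, and against the storage protein mean it was -0.19, where all gave 0.06. Against the photosynthetic mean it was -0.07 and all gave 0.23. These are descriptions over 13 differences that share arrays and scaling.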

How the data were processed

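Whole seeds were profiled on a 1-colour soybean expression array, 26 arrays in all. The deposited values are log2 signals made by the authors with GCRMA, per the submitters' processing notes; no source used here gives its version or the annotation's build. They were used as deposited. Symbols came from the platform's annotation, and all 25 members with 1 symbol were found in RefSeq's Glycine_max_v4.0 table, which changed none.

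Fits used R 4.3.3 and limma 3.58.1, with Benjamini-Hochberg adjustment over 11481 probe sets, and were tested on simulated data. Cycles were compared on the 24 arrays from 24 to 68 h, with a mean for each cycle and no linear time term. The members and all lists were chosen with earlier results of these data known. Named are all members with 1 symbol, 4 without by amplitude, and other probe sets of named genes; all 26 values are given for the 6 of largest amplitude among those with 1 symbol, and for CYP93E1 and RIN4c, which were added later as the members with a descriptive symbol. With no depth in array data, the number of arrays limits the precision. Filter, covariates, normalization, period, floor, replicate block and single arrays were varied. A planned motif search in promoters was not run, since no sequences were used here.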

Additional observations from a re-analysis of the deposited data

How the results depend on the processing

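The rule gave 67 members. It gave 141 without the linear time term (64 of the 67 among them), 41 at a period of 26 h (31 shared), 32 at p under 0.001, 181 at p under 0.01, 9 on the low floor arrays alone (4 shared) and 29 on the high floor arrays alone (10 shared). Leaving out 1 array at a time gave 44 to 94. Counts within 1.5 times came from a mean above 5 (65), no filter (67), limma's moderated F (56, 48 shared), quantile normalization (59, 36 shared), the replicate number as a block (69, 63 shared), the array floor as a block (77, 62 shared), a period of 22 h (91, 44 shared) and a window of 3 to 11 h (69). The 2 blocks group the arrays differently only at 64 and 72 h. For linear time the count of members at an adjusted p under 0.05 (limma) was 0, and 1 with the replicate number as a block and at a period of 22 h (Gma.3154.1.S1_at, adjusted p 0.0244 and 0.00787); leaving out 1 array gave 0 to 1. The counts for the 12 h terms and for the cycles were 0 under every alternative run, and 0 to 0 when 1 array was left out. Amplitudes of 29 named members moved by less than the SD between replicates in all 986 values recomputed. This criterion is wide, since over the members the median SD was 0.138 log2 and the median amplitude 0.18. LOC100778321, for example, met it with 0.13 on the low floor and 0.34 on the high floor arrays. With the difference between replicates taken as high floor minus low floor, chosen after seeing the data, the median correlation between members was 0.156 in place of 0.144. Same-numbered replicates did not move together: the correlation of replicate differences between times ranged from -0.384 to 0.606 with a median of 0.022, so the replicate number is not taken to pair the samples.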

Other observations

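Outside both the day window and the range of 16 to 22 h, 7 probe sets met the same p threshold; they are named here after their values were seen. SFERH-2, at a mean of 12.54 log2, had an amplitude of 0.30 and a peak at 2.11 h after dawn. LOC732602 had the largest amplitude of the 7, 0.38, at a low mean of 4.56, and peaked at 10.6 h. MYB93 peaked at 0.675 h and LOC100795994 at 22.4 h. The other 3 have no symbol.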
